A study of Mus musculus with 9 samples.

Results

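The genes described here are the FOS and JUN subunits of the transcription factor AP-1 (Fos, Fosb, Fosl1, Fosl2, Jun, Junb and Jund) together with Egr1, Arc and Npas4, which nerve cells switch on quickly after activity. They were chosen by name, as the entries of the deposited count table whose Ensembl mouse identifiers carry these symbols, and all 10 were found among 37224 genes. All 10 passed the filter on low counts, which left 18085 genes for testing. RNA was sequenced from 3 groups of 3 libraries of C57BL/6 mouse cells. MEF cells were primary fibroblasts of stage E13.5, at passage 0. A later change to medium that induces neurons appears in their labels without its timing relative to RNA extraction, so the medium behind each MEF value is uncertain. iGABA cells were such fibroblasts on day 14 of conversion towards GABAergic interneurons, with the first 2 days in fibroblast medium and the remainder in medium for neurons. GAD67 cells were primary interneurons of the cortex at stage E18.5, positive for the GAD67-GFP reporter, whose gene makes an enzyme of GABA synthesis. All cells were trypsinised, and iGABA and GAD67 cells were then also sorted for GFP, which MEF cells were not. Sorting, culture and freshly isolated tissue therefore differ along with the groups, and their part in any difference below cannot be told apart from that of cell identity.

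AP-1 is a dimer of a JUN protein with a FOS, JUN or ATF protein, joined through a leucine zipper, and it binds DNA at the AP-1 site and at related cyclic AMP response elements. Fos, Fosb, Jun, Junb and Egr1 are immediate early genes, transcribed within minutes of a stimulus from factors already present in the cell, chiefly serum response factor with its ETS partners and CREB. Fosl1 and Fosl2 follow more slowly and are the lasting FOS proteins of growing mesenchymal cells. In neurons, calcium entry drives the same early genes and adds Arc, a protein of dendrites that tunes glutamate receptors, and Npas4, a factor that is close to restricted to neurons and shapes inhibitory synapses.

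Totals ran from 27501521 to 38975523 counts per library. Levels are given as CPM (read counts scaled to library size, with sizes adjusted by TMM), and levels of different genes are compared only per kilobase of exon (RPKM). Fibroblast markers summed to 76364-84803 CPM in MEF, 727-1026 in iGABA and 129-137.3 in GAD67 cells. Interneuron markers summed to 9.12-10.4, 681-693 and 4583-4806 CPM in that order, and pan-neuronal markers over 6 genes to 19.4-21.7, 833-910 and 6552-6796. MEF and GAD67 cells carried the markers of their labels most strongly, and iGABA cells held neuronal markers above MEF and below GAD67. Oligodendrocyte lineage markers summed over 4 genes to 27.5-29.7 CPM in MEF, 396-408 in iGABA and 40.5-45.7 in GAD67 cells. MEF cultures also held macrophage and immune markers (406-441 CPM summed over 8 genes) that stood at 0.375-0.668 CPM in iGABA and 1.76-1.95 in GAD67 libraries. Endothelial markers summed over 6 genes to 235-253 CPM in the fibroblasts, 2.198-4.82 in the converted cells and 13.4-48.0 in the interneurons. The part of those cells in the results was not tested. In bulk RNA, fewer cells of a type and less RNA per cell cannot be told apart. One interneuron library, GAD67 replicate 9, had lower levels of several early genes than replicates 7 and 8, and values without it are also given for Fos, Fosb, Jun, Junb and Npas4.

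Converted cells differed from fibroblasts in 7 of the 10 genes. Against MEF, the FOS relatives Fosl2 and Fosl1 fell, along with Junb and Egr1, while Arc, Jun and Jund rose. Fos, Fosb and Npas4 did not pass the test. In all, 3 of 10 genes rose and 4 fell in the quasi-likelihood test of edgeR, where 81.9% of all tested genes were called (42.1% higher, 39.7% lower). At least 2-fold changes were called for 4 of 10, against 47.7% of all genes, and the libraries of both groups did not overlap for 9 of 10, against 84.9%. The median log2 fold change of the 10 genes was 0.30, beside 0.05 for all genes tested. Scaling by library size alone moved the calls over all genes from 7618 higher and 7188 lower to 9941 and 5283, and 4 of the 10 genes then rose, with Fosb the addition. Cortical interneurons differed from MEF in 9 of 10 genes, 4 higher and 5 lower, where 86.9% of all genes were called (43.1% higher, 43.8% lower), and 7 of 10 differed at least 2-fold, against 60.1%. Of those, 3 were higher, against 28.5% of all genes, and 4 lower, against 31.6%. The groups did not overlap for 8 of 10 genes, against 87%. Their median was -0.15, beside 0.00 for all genes. Between iGABA and GAD67 cells, 6 genes stood higher and 3 lower in iGABA, where 80.6% of all genes were called (41.3% higher, 39.3% lower), with a median of 0.72 beside 0.02. At least 2-fold differences were called for 6 of 10, against 46.6%, 4 of them higher in iGABA (26.6%) and 2 lower (20%), and 6 of 10 did not overlap, against 82.3%. Fosl1, with 27 reads in iGABA and 5 in GAD67, is among these higher genes. It is also among the falls against MEF, and it passed the filter on low counts only through MEF. The counts called lay near the background of all genes and are no result about the 10 genes as a set. The comparisons against MEF share the same MEF libraries, so they are not independent of each other.

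**Figure D1:**
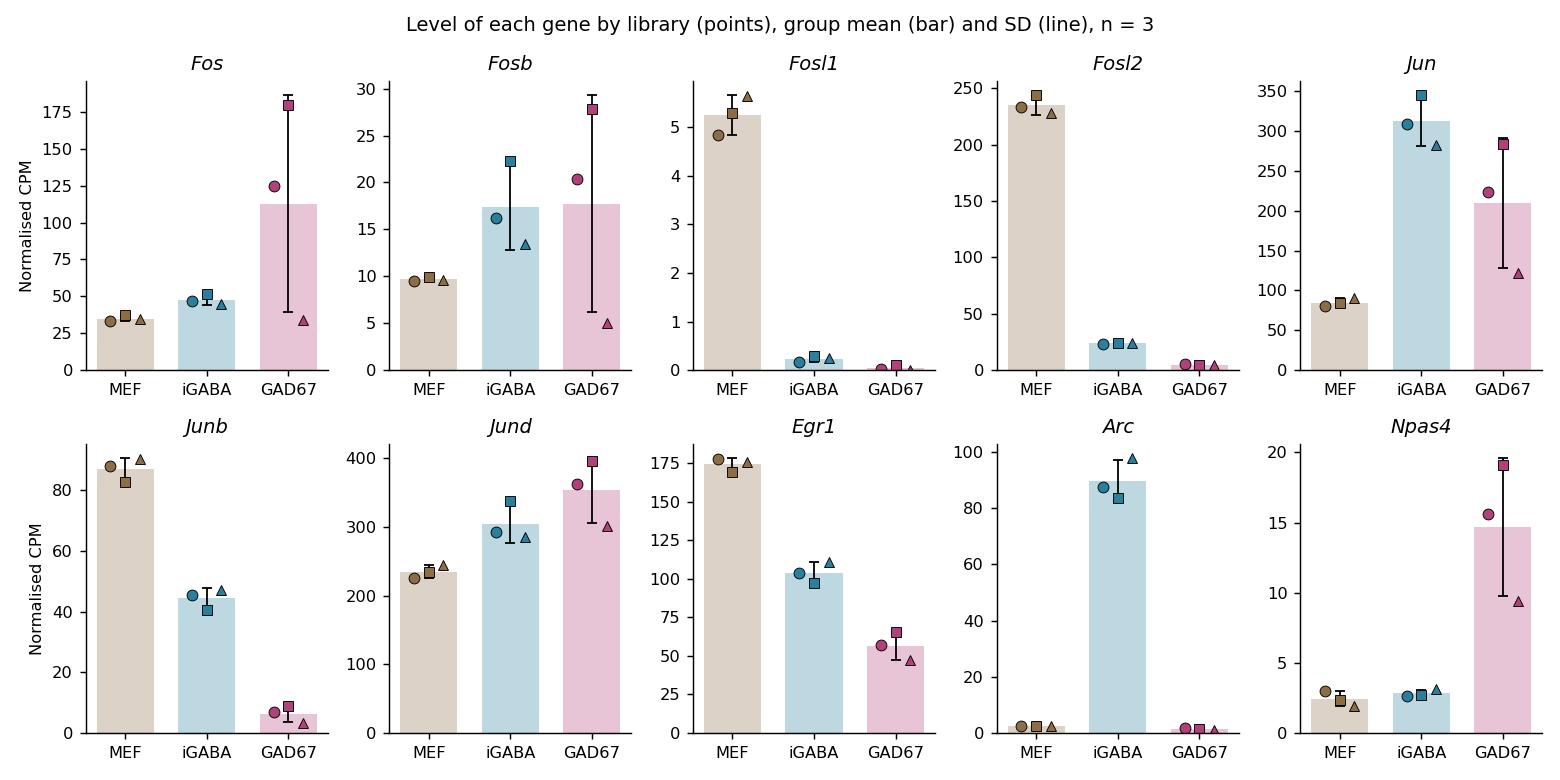
Normalised CPM (linear axis from 0, own scale per gene) of the 10 genes in each library of MEF, iGABA and GAD67 cells. Points are libraries (circle, square and triangle in the order of their replicate numbers), bars are group means and lines are SD with n = 3. Arc stands at 83.6 to 98.1 CPM in iGABA and under 3 CPM elsewhere, and the GAD67 triangle, replicate 9, lies lowest of its group for 10 of 10 genes.

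The FOS family changed its leading member. Fosl2 (ENSMUSG00000029135, mm10 chromosome 5, 32136472 to 32157831, plus strand, 4 exon parts), which encodes FRA2, stood at 233, 244 and 228 CPM in MEF libraries 1 to 3, at 23.0, 24.3 and 23.9 in iGABA libraries 4 to 6, and at 5.21, 4.90 and 4.21 in GAD67 libraries 7 to 9. The 3 groups did not overlap, and the converted cells lay between fibroblasts and interneurons. Against MEF the log2 fold change was -3.31 ± 0.0665 (SE) in iGABA cells, a 9.91-fold lower level (edgeR, adjusted p = 9.89e-14). In GAD67 cells it was -5.62 ± 0.0783, a 49.1-fold lower level (edgeR, adjusted p = 2.11e-15). iGABA cells kept 4.95 times the level of GAD67 cells (edgeR, adjusted p = 1.1e-11).

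Fosl1 (ENSMUSG00000024912, chromosome 19, 5447703 to 5455945, plus strand, 4 exon parts), which encodes FRA1, a FOS protein of proliferating and migrating cells, followed the same order at far lower counts. The MEF libraries held 132, 161 and 187 reads, the iGABA libraries 7, 12 and 8, and the GAD67 libraries 1, 4 and 0. That corresponds to 4.83, 5.30 and 5.65 CPM in MEF, 0.173, 0.287 and 0.2502 in iGABA, and 0.0255, 0.106 and 0 in GAD67. A count of 0 in GAD67 replicate 9 allows up to 3 counts, or 0.0847 CPM. iGABA cells stood 22.0-fold under MEF (log2 fold change -4.46 ± 0.292, edgeR, adjusted p = 1.02e-08). The fitted difference of GAD67 from MEF was -6.78 (edgeR, adjusted p = 1.51e-09), resting on 5 reads over the GAD67 libraries. Without GAD67 replicate 8, which holds 4 of them, it was -8.28. Fosl1 passed the filter on low counts only through MEF, the group where it is high. Its differences from MEF therefore describe the reads and are not given as support, though they are counted among the falls above. Without the filter they were -4.43 in iGABA and -6.75 in GAD67. Between iGABA and GAD67 it had 27 against 5 reads, and that fitted difference is not given as support either.

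Fos (ENSMUSG00000021250, chromosome 12, 85473890 to 85477273, plus strand, 4 exon parts), the prototype immediate early gene, stood at 33.1, 37.0 and 34.9 CPM in MEF libraries 1 to 3 and at 46.5, 51.8 and 44.5 in iGABA libraries 4 to 6. GAD67 libraries 7, 8 and 9 held 125, 179.7 and 33.8 CPM. The first 2 interneuron libraries lay far above every other library, while replicate 9 lay inside the MEF range. Every iGABA library exceeded every MEF library, yet the difference of 0.44 ± 0.402 was not called (edgeR, adjusted p = 0.319). That test takes the spread from all 3 groups. With the MEF and iGABA libraries alone, the difference was 0.46 and was called (edgeR, adjusted p = 4.74e-05). GAD67 cells were 3.22-fold above MEF (log2 fold change 1.69 ± 0.402, edgeR, adjusted p = 0.00155), and 4.395-fold without replicate 9 (edgeR, adjusted p = 6.67e-11). Against GAD67, iGABA cells were lower by 2.37-fold (log2 fold change -1.24 ± 0.391, edgeR, adjusted p = 0.0105), and by 3.22-fold without replicate 9 (edgeR, adjusted p = 1.41e-09).

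Fosb (ENSMUSG00000003545, chromosome 7, 19302721 to 19310045, minus strand, 4 exon parts), an early gene whose truncated product builds up with repeated activity, held 9.52, 9.97 and 9.60 CPM in MEF, 16.2, 22.3 and 13.48 in iGABA, and 20.4, 27.8 and 5.06 in GAD67 cells. Its iGABA libraries lay above all MEF libraries, and GAD67 spanned both groups. No comparison was called with all libraries, TMM scaling and the low-count filter. Its differences from MEF were called with library-size scaling (edgeR, adjusted p = 0.0175 for iGABA and 0.0313 for GAD67) and without the low-count filter (edgeR, adjusted p = 0.0218 and 0.0157). iGABA against MEF gave 0.84 ± 0.420 (edgeR, adjusted p = 0.0800), and 0.86 with those 2 groups alone (edgeR, adjusted p = 0.000343). GAD67 against MEF gave 0.87 (edgeR, adjusted p = 0.0670), and 1.33 without GAD67 replicate 9 (edgeR, adjusted p = 2.74e-06). iGABA against GAD67 gave -0.03 with a 95% interval of -0.90 to 0.84 (edgeR, adjusted p = 0.948), and -0.48 without replicate 9 (edgeR, adjusted p = 0.0135).

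These levels were turned into shares of the summed counts per kilobase of the 4 FOS genes, which do not depend on how libraries are scaled. Fosl2 made up 66.2% ± 0.977 of FOS transcripts in MEF, 14.0% ± 1.21 in iGABA and 2.28% ± 1.82 in GAD67 (SD, n = 3). Fos made up 24.5% ± 0.674, 69.8% ± 1.37 and 89.0% ± 1.41, and Fosb 4.26% ± 0.0497, 15.7% ± 2.52 and 8.69% ± 0.478. The leading FOS gene was Fosl2 in each MEF library and Fos in each of the other 6 libraries. In GAD67 libraries 7, 8 and 9 the Fos share was 89.3%, 90.2% and 87.4%, and the Fosl2 share was 1.497%, 0.989% and 4.37%. The summed FOS level was 60.7 ± 2.201 RPKM in MEF, 29.1 ± 2.89 in iGABA and 59.4, 84.7 and 16.5 in the GAD67 libraries.

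**Figure D2:**
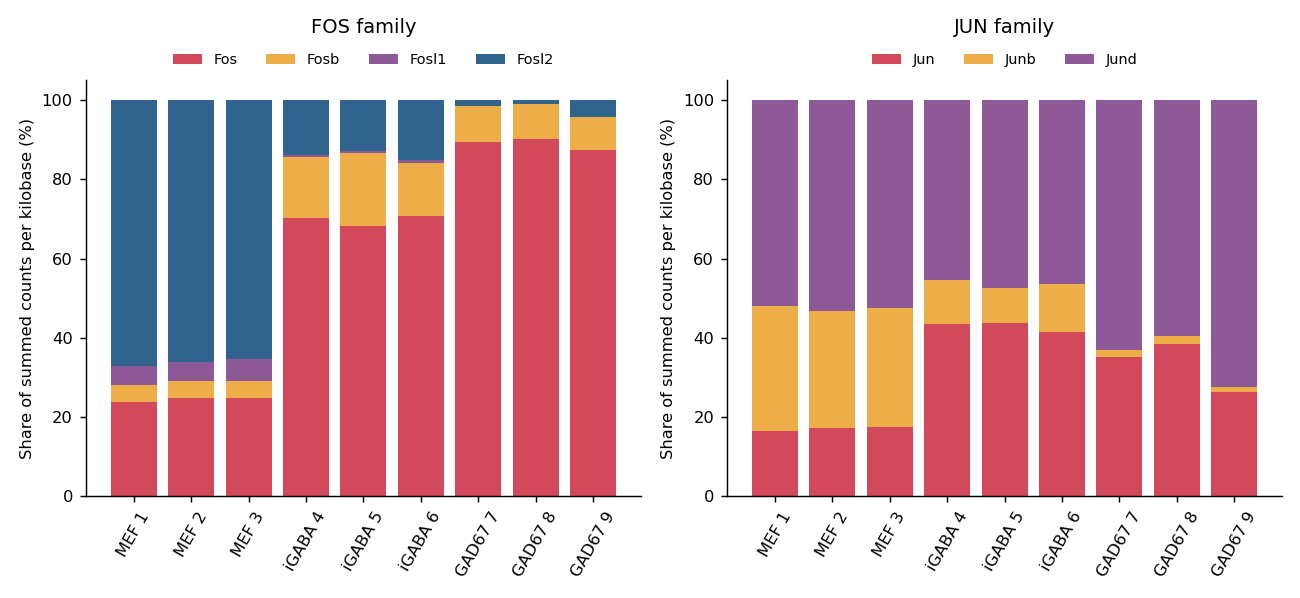
Share (%) of each gene in the summed counts per kilobase of the FOS family (left) and the JUN family (right), 1 stacked bar per library of the 3 groups. Fosl2 fills 66.2% of the FOS bars of MEF on average and little of those of GAD67, Fos fills most of the iGABA and GAD67 bars, and Junb shrinks from MEF to iGABA to GAD67.

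Among JUN genes, Jun (ENSMUSG00000052684, chromosome 4, 95049034 to 95052222, minus strand, 1 exon), a growth and stress factor that activates its own gene, was low in fibroblasts. It held 80.0, 84.1 and 90.5 CPM in MEF, 309, 345 and 283 in iGABA, and 224, 283 and 122 in GAD67 cells. All iGABA and GAD67 libraries exceeded all MEF libraries, and iGABA and GAD67 overlapped. The rise over MEF was 3.68-fold in iGABA (log2 fold change 1.88 ± 0.220, edgeR, adjusted p = 3.8e-06) and 2.47-fold in GAD67 (1.30 ± 0.218, edgeR, adjusted p = 8.69e-05), and 3.02-fold in GAD67 without replicate 9. iGABA cells stood 1.49-fold above GAD67 (edgeR, adjusted p = 0.0240), and 1.22-fold without GAD67 replicate 9 (edgeR, adjusted p = 0.0121). The call was lost without iGABA replicate 5 (edgeR, adjusted p = 0.0728), with only those 2 groups (edgeR, adjusted p = 0.0589) and in DESeq2 (adjusted p = 0.0703). Adjusted p ranged from 0.000425 to 0.0728 over its alternatives. The antisense gene Junos overlaps Jun and had 15-126 reads a library beside 2186-14457 for Jun.

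Junb (ENSMUSG00000052837, chromosome 8, 84976909 to 84978748, minus strand, 1 exon), which in many settings restrains Jun, went the opposite way. Its levels were 87.9, 82.7 and 90.2 CPM in MEF, 45.6, 40.5 and 47.1 in iGABA, and 7.05, 8.78 and 3.33 in GAD67 cells. The groups were in the same order as for Fosl2 and did not overlap. The fall from MEF was 1.96-fold in iGABA (log2 fold change -0.97 ± 0.178, edgeR, adjusted p = 0.00023) and 13.53-fold in GAD67 (-3.76 ± 0.211, edgeR, adjusted p = 1.38e-09), or 10.9-fold without replicate 9. iGABA cells retained 6.90 times the GAD67 level (edgeR, adjusted p = 4.33e-08), or 5.56 times without replicate 9.

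Jund (ENSMUSG00000071076, chromosome 8, 70697739 to 70700616, plus strand, 1 exon), the JUN gene that most cells express steadily, varied least. It held 226, 234 and 245 CPM in MEF, 292, 337 and 285 in iGABA, and 362, 396 and 302 in GAD67 cells. MEF lay below both other groups, which overlapped. The rise was 1.30-fold in iGABA (edgeR, adjusted p = 0.0023) and 1.504-fold in GAD67 (edgeR, adjusted p = 5.43e-05). The 1.16-fold lower level of iGABA than GAD67 was at the threshold (edgeR, adjusted p = 0.0497). It was lost without iGABA replicate 4 (edgeR, adjusted p = 0.166) or 6 (edgeR, adjusted p = 0.183), without GAD67 replicate 7 (edgeR, adjusted p = 0.121) or 8 (edgeR, adjusted p = 0.205), with library-size scaling (edgeR, adjusted p = 0.843) and with those 2 groups alone (edgeR, adjusted p = 0.0634). Adjusted p ranged from 0.000855 to 0.843 over its alternatives. The overlapping gene Gm11175 on the other strand had 24-66 reads a library beside 6179-14954 for Jund.

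By share of JUN transcripts per kilobase, Jun went from 17.1% ± 0.473 in MEF to 42.9% ± 1.17 in iGABA and 33.3% ± 6.22 in GAD67 (SD, n = 3). Junb went from 30.4% ± 1.07 to 10.7% ± 1.59 and 1.74% ± 0.433, and Jund from 52.5% ± 0.706 to 46.4% ± 0.930 and 65.0% ± 6.65. In GAD67 libraries 7, 8 and 9 the Jun share was 35.1%, 38.4% and 26.4% and the Jund share 62.98%, 59.5% and 72.4%, so replicate 9 was lowest for Jun and highest for Jund. For the 7 FOS and JUN shares in the 3 comparisons, 21 in all, an exact two-sided permutation test of 3 against 3 libraries gave p = 0.10 each time, also after Benjamini-Hochberg adjustment. That is the smallest p this design allows and it cannot pass the threshold. JUN transcripts outnumbered FOS transcripts per kilobase 2.57 ± 0.156 times in MEF and 7.86 ± 0.170 times in iGABA. GAD67 libraries 7, 8 and 9 had ratios of 3.36, 2.73 and 8.81. By this ratio, though not by its Fos share of 87.4%, replicate 9 lay nearer to the converted cells than to its own group.

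**Figure D3:**
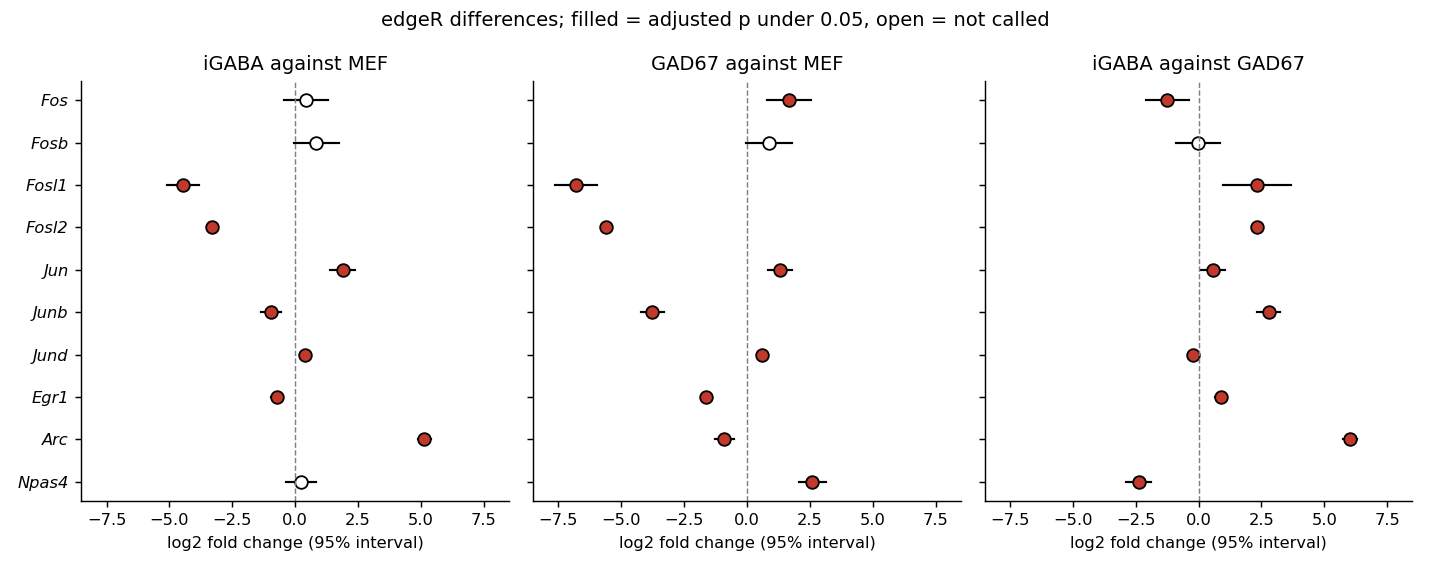
Log2 fold change with 95% interval (horizontal axis) of each of the 10 genes in 3 edgeR comparisons, with the first-named group higher to the right of 0. Filled points passed an adjusted p of 0.05 and open points did not. Fosl1 and Fosl2 lie left of 0 in both comparisons against MEF, and Arc at 5.12 and 6.01 is farthest to the right in the comparisons that hold iGABA.

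Arc (ENSMUSG00000022602, chromosome 15, 74669083 to 74672570, minus strand, 3 exon parts) was the gene that set the converted cells apart from both other groups. MEF libraries held 2.45, 2.63 and 2.63 CPM, iGABA libraries 87.4, 83.6 and 98.1, and GAD67 libraries 1.74, 1.38 and 1.02. In reads that is 67-87 for MEF, 3136-3533 for iGABA and 36-68 for GAD67. The iGABA level was 34.8-fold above MEF (log2 fold change 5.12 ± 0.120, edgeR, adjusted p = 3.91e-13) and 64.5-fold above GAD67 (6.01 ± 0.127, edgeR, adjusted p = 1.55e-13). The fibroblasts exceeded the interneurons, in which Arc was 1.85-fold lower (-0.89 ± 0.172, edgeR, adjusted p = 0.000308).

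Npas4 (ENSMUSG00000045903, chromosome 19, 4984355 to 4989971, minus strand, 8 exon parts) had its highest level in the interneurons. It held 3.002, 2.37 and 1.93 CPM in MEF, 2.65, 2.70 and 3.13 in iGABA, and 15.6, 19.1 and 9.38 in GAD67 cells. MEF and iGABA overlapped, while all GAD67 libraries lay above them, replicate 9 lowest. GAD67 cells stood 6.08-fold above MEF (log2 fold change 2.60 ± 0.247, edgeR, adjusted p = 3.56e-07), and 7.27-fold without replicate 9. iGABA cells were lower than GAD67 by 5.23-fold (-2.39 ± 0.237, edgeR, adjusted p = 7.47e-07), and by 6.22-fold without replicate 9. Their difference from MEF was 0.22, with a 95% interval from -0.37 to 0.81 (edgeR, adjusted p = 0.467).

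Egr1 (ENSMUSG00000038418, chromosome 18, 34859823 to 34864984, plus strand, 2 exon parts), a zinc-finger early gene induced by growth factors and by synaptic activity, fell stepwise. It held 178, 169.6 and 176 CPM in MEF, 104, 97.7 and 111 in iGABA, and 57.2, 65.5 and 47.4 in GAD67 cells, with no overlap between groups. Against MEF it was 1.68-fold lower in iGABA (log2 fold change -0.75 ± 0.0928, edgeR, adjusted p = 6.79e-06) and 3.07-fold lower in GAD67 (-1.62 ± 0.0954, edgeR, adjusted p = 2.27e-09). iGABA cells stood 1.83-fold above GAD67 (edgeR, adjusted p = 1.71e-06).

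Several early genes differed widely between the interneuron libraries. Fos was 5.31-fold and Fosb 5.50-fold higher in replicate 8 than in replicate 9, Junb 2.63-fold, Jun 2.33-fold and Npas4 2.04-fold. Egr1 and Jund differed 1.38-fold and 1.31-fold between those libraries, and Fosl2 1.24-fold between replicates 7 and 9. In replicate 9, Fos, Fosb and Junb lay at least 2-fold below both other GAD67 libraries, which held for 3.29% of the 18085 genes tested, genes of few reads included. Fosl1, with 0 reads against 1 and 4, has too few to tell. In no other library did any of the 10 lie that far below its group. Of 20 other early response genes, 2 lay at least 2-fold below both other GAD67 libraries in replicate 9 and 0 at least 2-fold above. The 2 below were Egr3, at 1.66, 2.33 and 0.791 CPM in replicates 7, 8 and 9, and Egr4, at 0 CPM in replicate 9. Summed over the 20 genes, the level was 258, 263 and 248 CPM in replicates 7, 8 and 9. Camk2b, a kinase subunit that binds Arc when the kinase is inactive, stood at 57.2, 75.1 and 28.3 CPM in the same libraries. It was the only 1 of 9 Arc and Npas4 partners at least 2-fold below both others in replicate 9. Of 15 late response genes of neurons, 2 lay that far below both others there and 1 that far above. Inhba (0.282 CPM) and Rasgrp1 (0.367 CPM) were below, and Bdnf (0.508 CPM) was above. Heat shock and dissociation genes summed to 2456, 2551 and 2430 CPM over 12 genes in replicates 7, 8 and 9. Hsp90ab1 alone held 1679 CPM of the replicate 9 sum, so these sums say little about the other genes of the list. Of the 12, 0 lay at least 2-fold below and 0 at least 2-fold above both other GAD67 libraries in replicate 9. Endothelial markers summed to 26.3, 13.4 and 48.0 CPM in replicates 7, 8 and 9 and glutamatergic neuron markers to 37.9, 31.8 and 52.1, both highest in replicate 9. Their part was not tested.

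**Figure D4:**
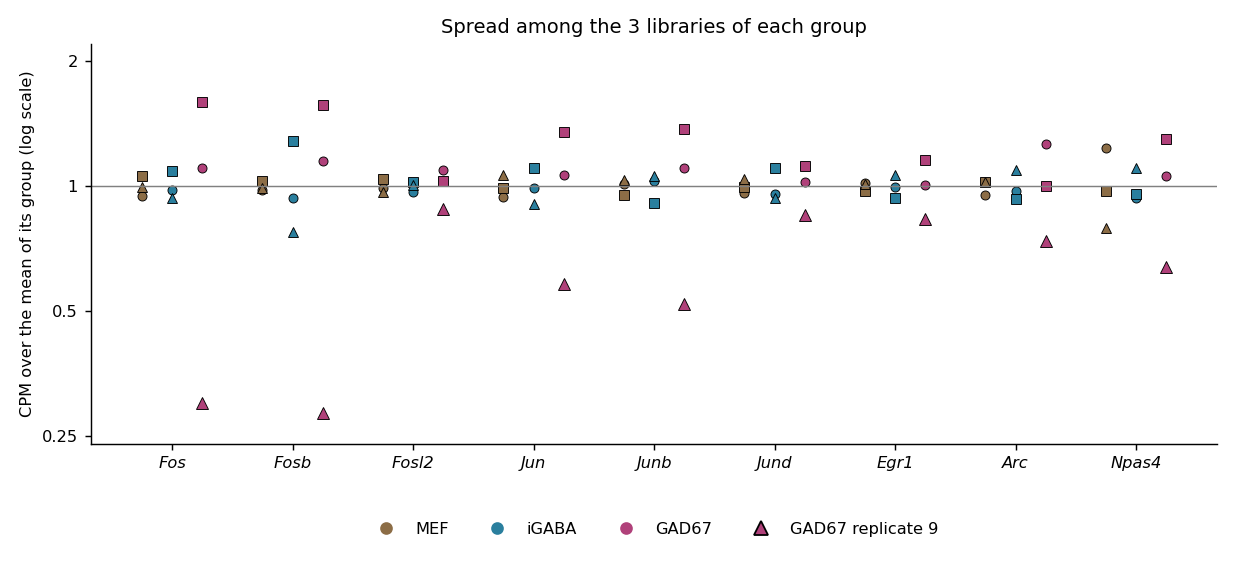
CPM of each library divided by the mean of its group (log axis), for 9 of the 10 genes. Fosl1 is left out because its GAD67 libraries hold 0 to 4 reads. Colours are groups, and the triangle of GAD67, replicate 9, lies lowest for Fos and Fosb, while MEF libraries stay close to 1 for all but Npas4.

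Promoters of 7 of the 10 genes were taken from the RefSeq table (GRCm38.p6, the sequence of mm10), and the 250 bases before each start were searched on both strands. The CRE core TGACGT, which the full element TGACGTCA contains, occurred in Fos and Npas4. It occurs in 6.47% of 32851 promoter windows of that length, and the full element in 1.55%. The AP-1 site TGANTCA (6.75% of windows) and the CArG box, the site of serum response factor (1.47%), were in none of the 7 windows. Bases farther upstream were not searched, nor were Egr1, Fosl1 and Arc, so such an absence holds for these windows alone. The variant TGACATCA, known from the Jun gene (2.93%), was in Jun. A match describes letters and not a bound site. The windows of Fos, Npas4 and Jun are shown, since these are the matches found, 5′ to 3′ on the gene's strand, with matches to TGACGT or TGACATCA in capitals. ACGTCA in Npas4 is TGACGT read on the other strand.

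Fos, chr12:85473640-85473889, plus strand: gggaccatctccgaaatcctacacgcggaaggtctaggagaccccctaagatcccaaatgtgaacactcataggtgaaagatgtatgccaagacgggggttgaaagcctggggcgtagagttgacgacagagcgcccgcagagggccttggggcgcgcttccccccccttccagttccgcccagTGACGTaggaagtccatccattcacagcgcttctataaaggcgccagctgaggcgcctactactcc

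Npas4, chr19:4989972-4990221, minus strand: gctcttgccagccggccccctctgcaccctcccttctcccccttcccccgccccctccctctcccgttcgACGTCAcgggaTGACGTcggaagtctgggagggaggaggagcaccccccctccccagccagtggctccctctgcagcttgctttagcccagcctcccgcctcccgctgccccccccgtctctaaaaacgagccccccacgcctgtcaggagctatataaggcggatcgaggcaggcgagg

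Jun, chr4:95052223-95052472, minus strand: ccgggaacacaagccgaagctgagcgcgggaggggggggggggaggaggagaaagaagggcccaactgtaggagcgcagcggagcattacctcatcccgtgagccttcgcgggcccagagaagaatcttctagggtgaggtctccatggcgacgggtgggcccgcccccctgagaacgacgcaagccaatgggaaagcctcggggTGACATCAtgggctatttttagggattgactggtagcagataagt

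Counted from the start, the Fos match spans positions -66 to -61, the Npas4 matches -180 to -175 and -169 to -164, and the Jun match -45 to -38. Fos also has a TATA box (TATAAA, 12.4% of windows) at -33 to -28.

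Compared per length, Jund was the most abundant of the 10 transcripts in each group. It stood at 81.7 ± 3.24 RPKM in MEF, followed by Junb (47.2 ± 2.09), Fosl2 (40.2 ± 1.43) and Egr1 (38.9 ± 0.969), the last 2 with overlapping libraries (SD, n = 3). In iGABA Jund (106 ± 9.82) and Jun (97.9 ± 9.83) overlapped, and Arc came next at 29.3 ± 2.46 RPKM, above Junb (24.1 ± 1.88), Egr1 (23.2 ± 1.48) and Fos (20.2 ± 1.60), neighbours of which overlapped. In GAD67 Jund (123 ± 16.6) was followed by Jun (65.8 ± 25.6), Fos (48.0 ± 31.3) and Egr1 (12.7 ± 2.02), with overlap between Jun and Fos and between Fos and Egr1. Fosl1 was lowest of the 10 in iGABA (0.139 ± 0.0339 RPKM) and GAD67 (0.0257 ± 0.0324), and Npas4 (0.743 ± 0.164) and Arc (0.841 ± 0.0334) overlapped at the bottom in MEF. Arc thus went from rank 9 in MEF and GAD67 to rank 3 in iGABA.

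The gene most like each of the 10 across the 9 libraries was sought among the 18084 others by the root mean square difference of log2 CPM around each gene's mean. For Arc it was Nr4a3, an orphan nuclear receptor that is itself an early response gene, at a difference of 0.26. Nr4a3 held 8.80 ± 0.582 CPM in MEF, 220.1 ± 10.8 in iGABA and 3.81 ± 0.161 in GAD67 cells. Other nearest genes were Fkbp11 for Fosl2 (0.19), Got1l1 for Fosl1 (0.23), Asns for Junb (0.14), Sdr39u1 for Jun (0.14) and Rps26 for Egr1 (0.04), whose reads may be split with near-identical copies. Npas4 was nearest to E130317F20Rik (0.19), Jund to 5730455P16Rik (0.06), Fosb to Gm12369 (0.37) and Fos to the pseudogene Tmem181b-ps (0.32). Within the set, Fos and Fosb were each other's nearest member (0.52), as were Fosl1 and Fosl2 (0.52). These distances describe 3 groups of 3 libraries and carry no test.

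Most early response genes outside the set stood lower than in fibroblasts. Of 20 such genes, 4 rose and 14 fell in iGABA against MEF, beside 42.1% and 39.7% of all genes, with a median log2 fold change of -1.05 beside 0.05. In GAD67 against MEF 18 were lower and 1 was higher, beside 43.8% and 43.1% of all genes (median -3.09, beside 0.00). The higher one was Egr4, at 0 to 0.106 CPM in GAD67 and 0 in MEF, and its call was lost without any 1 MEF library or without GAD67 replicate 7 or 8, and with only those 2 groups. iGABA stood above GAD67 in 16 and below in 4, beside 41.3% and 39.3% of all genes (median 1.92, beside 0.02). The risers in iGABA were Nr4a3, Btg2, Myc and Egr4. Btg2, an antiproliferative gene of newborn neurons, went from 113 ± 4.09 to 304 ± 11.7 CPM and stood at 14.7 ± 0.900 in GAD67 (edgeR, iGABA against MEF, adjusted p = 6.16e-11). Egr4 had 38 reads in iGABA and none in MEF, at least 10.1-fold higher against a floor of 3 counts over the MEF group. Egr4 passed the filter on low counts only through iGABA, the group where it is high, so its counted rise is not given as support. Klf6 fell furthest in iGABA, from 217 ± 4.63 to 11.9 ± 0.778 CPM (edgeR, adjusted p = 1.66e-14). Egr2 was the gene furthest below MEF in GAD67, at 0.108 ± 0.0542 against 7.43 ± 0.905 CPM (edgeR, adjusted p = 1.91e-10).

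**Figure D5:**
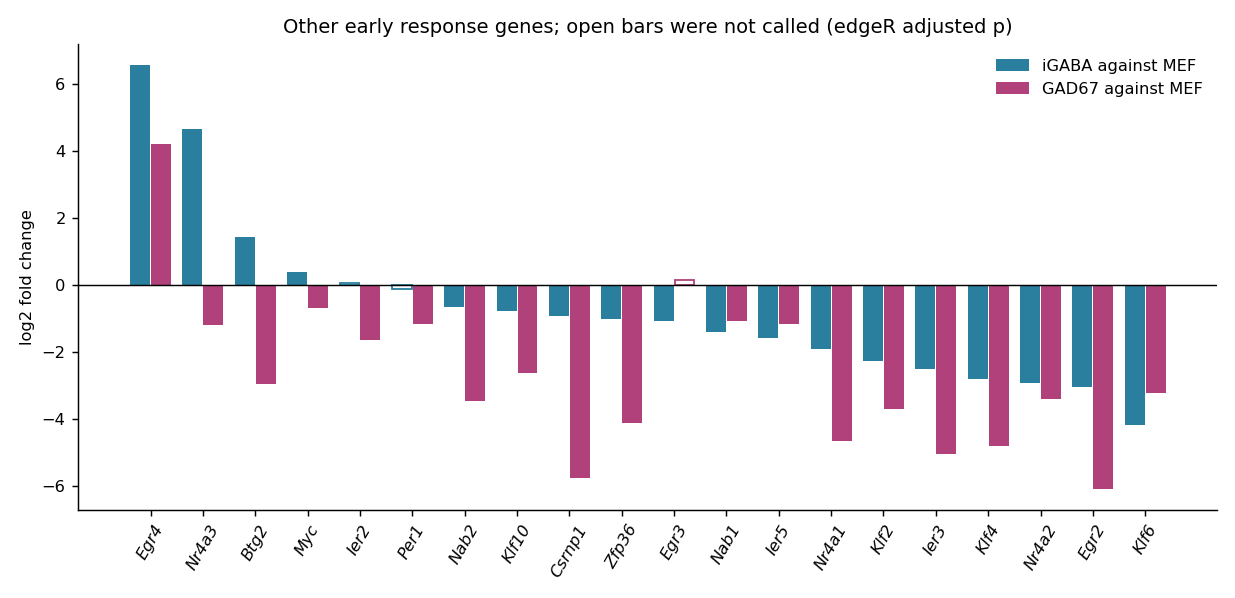
Log2 fold change of 20 early response genes outside the set, in iGABA against MEF and in GAD67 against MEF, ordered by the former. Filled bars passed edgeR's adjusted p of 0.05. Nr4a3, Btg2 and Myc are higher in iGABA and lower in GAD67, and the Egr4 bars are fitted values against 0 reads in MEF, not measured folds.

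AP-1 partners and antagonists, of which 11 of 13 were tested, gave 2 rises (4 with library-size scaling) and 8 falls in iGABA against MEF, where 42.1% of all genes were higher and 39.7% lower. They gave 4 and 7 in GAD67 against MEF, beside 43.1% and 43.8%. Atf2, a partner of Jun, rose from 73.7 ± 3.28 to 141 ± 5.98 CPM (edgeR, adjusted p = 2.45e-09). Atf3, a stress-induced partner, stood at 19.3 ± 1.35 CPM in MEF, 19.5 ± 3.83 in iGABA and 0.161 ± 0.0484 in GAD67, 118-fold lower in GAD67 than in MEF (edgeR, adjusted p = 7.61e-12). Batf3 fell from 54 reads in MEF to 3 in iGABA, a ratio of 22.6 (95% counting interval 7.35 to 113). Batf3 passed the filter on low counts only through MEF, where it is high, so its counted fall is not given as support. Maf, a factor of cortical interneurons, was 4.93-fold higher in GAD67 than in MEF (edgeR, adjusted p = 8.22e-11). Between iGABA and GAD67 the list gave 6 higher and 2 lower in iGABA, beside 41.3% and 39.3% of all genes.

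The factors that switch early genes on went both ways, where over all genes 42.1% were higher and 39.7% lower in iGABA against MEF, 43.1% and 43.8% in GAD67 against MEF, and 41.3% and 39.3% in iGABA against GAD67. Of 17 SRF, CREB and MEF2 regulators, 9 rose and 7 fell in iGABA (median 0.26), 7 and 7 differed in GAD67 against MEF, and 7 stood higher and 10 lower in iGABA than in GAD67. The CREB coactivator gene Crtc1 went from 24.3 ± 1.42 in MEF to 59.3 ± 3.34 in iGABA and 184 ± 29.7 CPM in GAD67 (edgeR, adjusted p = 1.1e-07 and 1.8e-11 against MEF). Mef2c, a calcium-responsive factor of neurons and muscle, fell from 33.0 ± 1.44 to 0.607 ± 0.271 CPM in iGABA and stood at 207 ± 32.8 in GAD67 (edgeR, iGABA against GAD67, adjusted p = 2.55e-13). Elk3, an ETS partner of SRF, was 19.2-fold lower in GAD67 than in MEF (edgeR, adjusted p = 1.41e-14). Of 19 MAP kinase genes, 9 rose and 5 fell in iGABA, and 14 rose and 2 fell with library-size scaling, which gave 9941 higher and 5283 lower over all genes. In GAD67 12 were higher and 6 lower than in MEF, and 5 were higher and 10 lower in iGABA than in GAD67. The 5 became 9 with library-size scaling and 3 without GAD67 replicate 7 or 8. The JNK gene of neurons Mapk10, whose product phosphorylates Jun, stood at 0.182 ± 0.0964 CPM in MEF, 13.0 ± 1.34 in iGABA and 354 ± 23.9 in GAD67 (edgeR, iGABA against GAD67, adjusted p = 8.37e-14). Mapk8ip2, a JNK scaffold, rose from 0.380 ± 0.117 to 239 ± 7.99 CPM in iGABA (edgeR, adjusted p = 3.1e-15).

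Of 10 ERK feedback genes, 3 rose and 6 fell in iGABA, 4 and 6 did so in GAD67, and 6 stood higher and 3 lower in iGABA than in GAD67. Over all genes 42.1% were higher and 39.7% lower in iGABA, and 43.1% and 43.8% in GAD67, against MEF. In iGABA against GAD67 the shares were 41.3% and 39.3%, and all these are the background of each list in this paragraph. Dusp4, an ERK phosphatase, rose from 28.0 ± 1.49 to 186 ± 4.05 CPM in iGABA (edgeR, adjusted p = 3.75e-11), and Spry1, an inhibitor of growth factor signalling, fell from 146 ± 5.39 to 7.94 ± 0.511 (edgeR, adjusted p = 1.71e-14). Of 15 AP-1 target genes known from fibroblasts, 1 rose (2 with library-size scaling) and 12 fell in iGABA (median -2.22). In GAD67 14 were lower than in MEF (median -6.46) with none higher. iGABA stood above GAD67 in 9 and below in 2 (1 without GAD67 replicate 7 or 9). Mmp3 and Il6 had 0 reads in GAD67, so they passed the filter on low counts through other groups and could not be called higher there. The listed genes are known from fibroblasts, so their counts and medians against MEF are not given as support. Plaur, the urokinase receptor, held 30.1 ± 1.84 CPM in MEF and 0.0799 ± 0.0121 in iGABA, from 2744 and 9 reads. Plaur too passed the filter on low counts only through MEF, where it is high, so its counted fall is not given as support. Cd44, a hyaluronan receptor, stood at 231 ± 14.1 CPM in iGABA against 0.338 ± 0.0759 in GAD67 (edgeR, adjusted p = 4.01e-15).

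Late response genes of neurons went both ways, where 42.1% of all genes were higher and 39.7% lower in iGABA than in MEF. Over all genes the shares were 43.1% and 43.8% in GAD67 against MEF, and 41.3% and 39.3% in iGABA against GAD67. They are the background of each list in this paragraph. Of 15, 6 rose and 7 fell in iGABA (median -0.85), 6 were higher and 8 lower in GAD67 than in MEF, and 10 stood higher and 3 lower in iGABA than in GAD67. Pcsk1, a peptide-processing enzyme, rose from 0.104 ± 0.101 to 37.4 ± 3.14 CPM in iGABA (edgeR, adjusted p = 5.9e-12), and Bdnf, a neurotrophin, fell from 35.9 ± 0.490 to 0.327 ± 0.0519 (edgeR, adjusted p = 6.49e-11). Ptgs2, the inducible cyclooxygenase, had 2969 reads in MEF and 1 in GAD67, a ratio of 3671 (95% counting interval 658 to 145034). Of 9 Arc and Npas4 partners, 4 rose and 3 fell in iGABA, 6 were higher and 2 lower in GAD67 than in MEF, and 2 stood higher and 6 lower in iGABA than in GAD67. Cacng2, an AMPA receptor partner that binds Arc, reached 1.61 ± 0.386 CPM in iGABA and 74.4 ± 1.39 in GAD67 (edgeR, adjusted p = 2.05e-12). Of 7 genes of Jun and Fos turnover, 1 (Det1) rose and 5 fell in iGABA, 4 were higher and 3 lower in GAD67 than in MEF, and 2 were higher and 4 lower in iGABA than in GAD67 (2 lower with library-size scaling). The Det1 call was lost without MEF replicate 2 (edgeR, adjusted p = 0.0679). Zfp36l1, which destabilises AU-rich early mRNAs, was 93.8-fold lower in GAD67 than in MEF (edgeR, adjusted p = 9.58e-15).

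Heat shock and dissociation genes, given because cell handling can move them together with early genes, gave 3 rises and 8 falls of 12 in iGABA against MEF, beside 42.1% and 39.7% of all genes. They gave 4 and 8 in GAD67 against MEF, beside 43.1% and 43.8% of all genes. In iGABA against GAD67, 7 were higher and 4 lower, beside 41.3% and 39.3%. Summed over the list they stood at 3550-4026 CPM in MEF, 3332-3501 in iGABA and 2430-2551 in GAD67 cells. Hsp90ab1 alone held 1679 CPM of the sum in GAD67 replicate 9. The part of cell handling in the early genes was not tested. Bag3, a cochaperone induced by stress, went from 91.8 ± 5.65 in MEF to 49.8 ± 2.22 in iGABA and 0.278 ± 0.0908 CPM in GAD67 (edgeR, iGABA against GAD67, adjusted p = 3.92e-14).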

How the data were processed

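RNA sequencing counts of 9 mouse libraries were analysed, 3 each of MEF, iGABA and GAD67 cells, grouped by their titles. Per the labels' protocols, RNA was column-purified and strand-marked libraries were made with dUTP. The deposited values are whole-number read counts per gene, not normalised. The submitters' processing notes list BWA 0.7.2, featureCounts and DESeq 1.10.1 with mm10. The role of each, the annotation used for counting and its strandedness were not given in the sources used here, so reads of Jun and Jund cannot be told from those of genes overlapping them on the other strand. Exon lengths are those of the deposited table, per the file headers.

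Symbols came from GENCODE vM21 (35449 of 37224 genes, 95.2%). Of 138 genes in 10 pathway lists, 137 were in the table, 3 of them under newer symbols (Mrtfa, Mrtfb and Cop1). Atf7 was not analysed here. Genes passed edgeR's filterByExpr (minimum count 10, minimum total 15). The quasi-likelihood test of edgeR 4.0.16 in R 4.3.3 was fitted to all 9 libraries with TMM scaling, and p-values were adjusted by Benjamini-Hochberg over 18085 genes. Calls, and the words rose, fell, higher and lower for a tested gene, rest on an adjusted p under 0.05. Values are mean ± SD with n = 3, log2 fold changes ± SE. The test was tried on simulated counts. The shared biological coefficient of variation was 7.91%. Counting intervals (exact, 95%) and floors of 3 counts cover counting error only, and PCR copies may widen it. Nothing says that the libraries of a group came from different cultures or animals, so p-values measure only the spread between these libraries, which may be technical.

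The 10 genes and the lists were chosen with earlier results of these data known. Genes named from the lists include, per list and comparison, the called gene with the largest fold in either direction whose libraries do not overlap. Btg2, Myc, Egr3, Camk2b, Inhba, Rasgrp1, Mmp3, Il6 and Hsp90ab1 were named after their values were seen, as were the libraries singled out. Alternatives were other scalings, no low-count filter, DESeq2 1.42.0, only the groups compared, raw-count shares and leaving out each library.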

Additional observations from a re-analysis of the deposited data

How the results depend on the processing

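With scaling by library size alone, the median difference over all genes in iGABA against MEF moved from 0.05 to 0.46 on the log2 scale, where calls went from 7618 higher and 7188 lower to 9941 and 5283. Among the 10 genes, 307 values from alternatives kept direction and call, 9 lost and 8 gained a call, and 5 changed sign. Those 5 were all Fosb in iGABA against GAD67, not called in any of the 5: 0.16 with library size alone, 0.02 and 0.12 without iGABA replicates 4 and 6, and 0.08 and 0.44 without GAD67 replicates 7 and 8 (without replicate 9 it was -0.48). Genes higher in iGABA than in MEF numbered 5 and not 3 with those 2 groups alone, where Fos and Fosb joined and the wide GAD67 spread is not part of the fit. In the 2-group fit of iGABA and GAD67, Fosl1 did not pass the filter and has no value. Raw-count shares, not per kilobase, favour long transcripts such as Fosl2. They were 12.3%, 53.6% and 82.0% for Fos (MEF, iGABA, GAD67), 3.40%, 19.3% and 12.8% for Fosb, 82.5%, 26.8% and 5.18% for Fosl2, and 1.85% and 0.265% for Fosl1 in MEF and iGABA. For Jun they were 20.8% and 47.2% in MEF and iGABA, for Junb 21.4%, 6.77% and 1.08%, and for Jund in MEF 57.8%. The leading FOS gene of each group was the same either way, but the leading JUN gene of iGABA was Jund per kilobase and Jun in raw counts (47.2% against 46.1% for Jund). No paired analysis was possible because the groups share no replicate numbers. Depth limits Fosl1, with 0 to 12 reads a library outside MEF.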
